A study of Xenopus laevis with 9 samples.

Results

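The genes described here encode the proteins of the ribosome and the factors that start and extend protein chains, as measured on arrays of XLK-WG, a kidney cell line of the frog Xenopus laevis. Members were the probe sets with 1 gene symbol that, without its copy suffix, named a ribosomal protein, an initiation factor (eif1 to eif6 and their subunits) or an elongation factor (eef1 and eef2), ribosomal protein S6 kinases left out. The rule used names and no measured value. It found 170 of the 15491 probe sets on the array that were not controls, standing for 130 genes (112 symbols) of the 7531 that single-symbol probe sets name. Of these, 90 probe sets (73 genes) were ribosomal proteins, 72 (49 genes) were translation factors, and 8 named kinases, binding proteins, methyltransferases and other proteins called after a factor. A further 18 probe sets whose annotation lists both copies of such a gene, and 4 that list another gene beside it, were left out. Of 77 ribosomal protein symbols listed by hand, 61 had at least 1 member.

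The cells were exposed for 3 h to 100 nM TCDD, a chlorinated dioxin, to 100 nM FICZ, a photoproduct of tryptophan, or to the solvent alone, and all groups carried the solvent dimethyl sulfoxide (DMSO) at 0.25%. Both compounds are ligands of the AHR, the aryl hydrocarbon receptor, which switches on genes of foreign compound metabolism. Each group had 3 Affymetrix arrays, called biological replicates by the labels, which do not say how the cultures were kept apart, so the p values measure the spread between these samples. The line is 1 cell line at 1 dose and 1 time point. Control arrays are titled with the letters CH, absent from the ligand titles and not explained, so whatever they mark and the absence of ligand cannot be told apart.

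Across all 11618 probe sets tested, 3 passed an adjusted p of 0.05 with TCDD and 70 with FICZ, and the gene that rose most with either ligand was cyp1a1.L, the classic AHR target, by 3.11 and 4.82 on the log2 scale. DMSO replicate 2 stood apart, with 22.6% of the variation within groups over all probe sets and 30.0% over the members. Of 12 kidney epithelium markers 7 were measured, and 5 of their 16 probe sets lay above the level set for testing. They were of aqp2.S (6.10, the highest log2 signal), pax8.L (5.49) and pax2.L (up to 5.92). Other pax2.L probe sets and, among others, those of cdh1.S (2.58) and epcam.L (4.42) lay below it. Of 9 fibroblast markers 5 were measured, 7 of their 10 probe sets lay above that level, and vim.L reached 13.1 and col1a1.S 10.3. The fibroblast marker col1a2.L, at 4.003, lay below it too. Markers of other lineages also passed that level, with 2 of 4 probe sets for endothelium and blood and 3 of 6 for muscle and nerve. Among them were pecam1.L (7.16), with a higher signal than aqp2.S, and myod1.S (5.62), with a higher signal than pax8.L. Passing that level was thus not particular to markers of kidney epithelium.

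A ribosome has a small subunit, which reads the messenger RNA, and a large subunit, which joins amino acids. In the textbook account initiation factors bring the small subunit and the first transfer RNA to the capped end of the messenger, and elongation factors then deliver further transfer RNAs and move the ribosome along. In vertebrates the messengers of ribosomal proteins and of several elongation factors begin with a pyrimidine tract, through which the mTOR pathway controls their translation. Xenopus laevis is an allotetraploid, and many of its genes are present as a copy from each ancestral genome, marked .L and .S. Arrays report the amount of messenger relative to the other transcripts, so translation and protein were not measured, and fewer cells of a type and less RNA per cell cannot be told apart.

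Ribosomal proteins gave some of the brightest and most repeatable signals on the array. Of the 164 members tested, 86 were ribosomal proteins with a median log2 signal of 12.76, and 79 of them lay among the brightest 1162 of the tested probe sets (log2 10.31 or more). They made up 42 of the 100 brightest probe sets. The 70 tested translation factors had a median of 10.92, and 41 lay among those 1162. The 8 regulators and others had a median of 8.39. Signals of different probe sets depend on their probes as well as on the transcript, so these figures describe the measurement and not which messenger is more abundant. The brightest members were rps13.L, a small subunit protein, at 13.51 and rps27.S, likewise of the small subunit, at 13.51. The dimmest tested was a probe set of eef1b2.L, a subunit of the exchange complex of elongation factor 1, at 5.52. Another eef1b2.L probe set read 12.35, so probe sets of the same gene can differ widely.

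The standard deviation within groups had a median of 0.05 for ribosomal proteins, 0.11 for factors and 0.17 for all tested probe sets. Much of that gap went with brightness. Among probe sets with a log2 signal of 12 to 14 the median was 0.04 for 74 ribosomal proteins, 0.06 for 15 factors and 0.05 for all 237. The tightest members were a probe set of eif5a.L, a factor that helps ribosomes past stalled peptide bonds, with 0.018, and rpl23.S, a large subunit protein, with 0.020. The loosest were the dim probe set of eef1b2.L (0.32), eef1a2.S, a form of the factor that delivers transfer RNA (0.32), and a dim probe set of rpl38.L (0.31). The other 6 members averaged below the level for testing (log2 4.88) and were not tested, namely eef1a1o.S, rpl28.L, rpl3l.L and single probe sets of eef1d.L, rpl34.L and rps10.L.

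**Figure D1:**
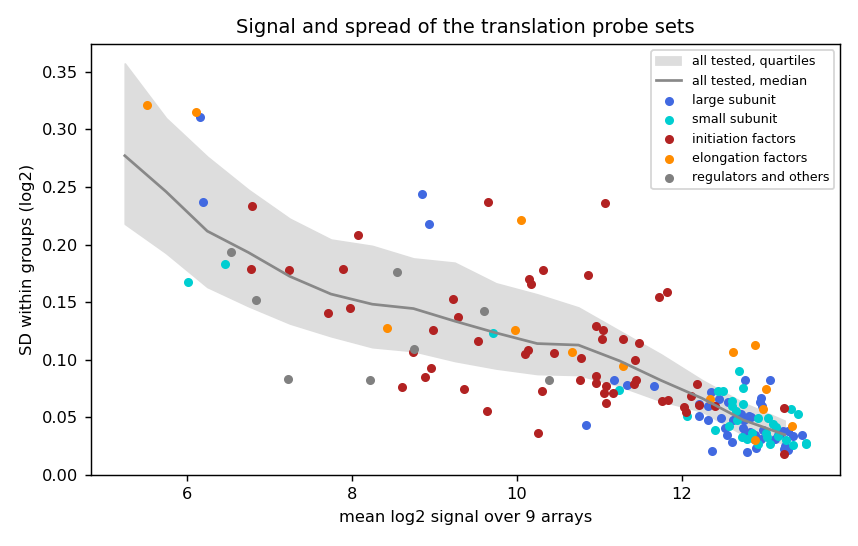
Standard deviation within groups (log2, 3 groups of 3 arrays) against the mean log2 signal of the 9 arrays, with 1 point per tested member and the quartile band and median of all 11618 tested probe sets in grey. Ribosomal proteins crowd at a signal above 12 with deviations near 0.05, while the factors spread over the whole range and follow the grey median.

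The comparison of TCDD with DMSO asks whether the dioxin altered these messengers within 3 h. No member was called, 0 of 164, against 0.0258% of all tested probe sets, and the lowest adjusted p among members in the limma test was 0.97. At an unadjusted p of 0.05, 6 members passed or 3.66% against 3.43% of all. They were 3 higher and 3 lower, 1.83% each, against 2.18% higher and 1.25% lower over all. The arrays of the groups did not overlap for 13 members, 7.93% against 7.82% of all. The 95% confidence interval of the change lay inside 1.5-fold either way for 160 of 164 members, 97.6% against 80.1% of all. Neither this share nor those given below are matched for brightness. The members had a median log2 signal of 12.22 against 7.66 for all, and brighter probe sets had a smaller spread. The 4 exceptions were probe sets of rpl38.L, eef1a2.S, eef1b2.L and eif3a.S with a mean log2 signal below 7.

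FICZ against DMSO gave 0 called members of 164, against 0.603% of all tested probe sets, and the lowest adjusted p in the limma test was 0.29. An unadjusted p under 0.05 was found for 7 members, 4.27% against 7.39% of all. They were 3 higher (1.83% against 3.82%) and 4 lower (2.44% against 3.56%). Arrays did not overlap for 18 of the 164 members, against 12.2% of all. Intervals lay inside 1.5-fold for 160 members, 97.6% against 77.0% of all, and the exceptions were the probe sets of rpl38.L, eef1a2.S and eef1b2.L named above and 1 of rpl35a.S. FICZ set against TCDD likewise gave 0 called members (background 0.207%, lowest adjusted p 0.86), with 2 members at an unadjusted p under 0.05, 1.22% against 3.08% of all. Here 161 intervals, 98.2%, lay inside 1.5-fold, against 82.4% of all, and the exceptions were probe sets of eef1b2.L, rpl35a.S and rps6.S. The mean of both ligands against DMSO gave 0 called members (background 0.224%, lowest adjusted p 0.52), and 7 had an unadjusted p under 0.05, 4.27% against 6.93% of all. These comparisons share arrays, so their values are not independent of each other.

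Leaving out DMSO replicate 2 moved many of these small changes. Without that array 38 of the 164 members changed sign with TCDD and 43 with FICZ. An unadjusted p under 0.05 was then found for 2 members with TCDD (1.22% against 4.06% of all tested probe sets) and 9 with FICZ (5.49% against 9.27%). None of the 2 and 1 of the 9, eif3a.L, had also passed with all arrays. No member was called without the array.

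A few bright probe sets were called with FICZ against DMSO. Of the 237 tested probe sets with a log2 signal of 12 to 14, 3 passed the threshold with FICZ against DMSO (1.27%), with changes over all 237 running from -0.44 to 0.27. Of the same 237, 0 passed with TCDD against DMSO and 0 with FICZ against TCDD. Whether the scanner signal at that brightness rises in proportion to the transcript was not tested.

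**Figure D2:**
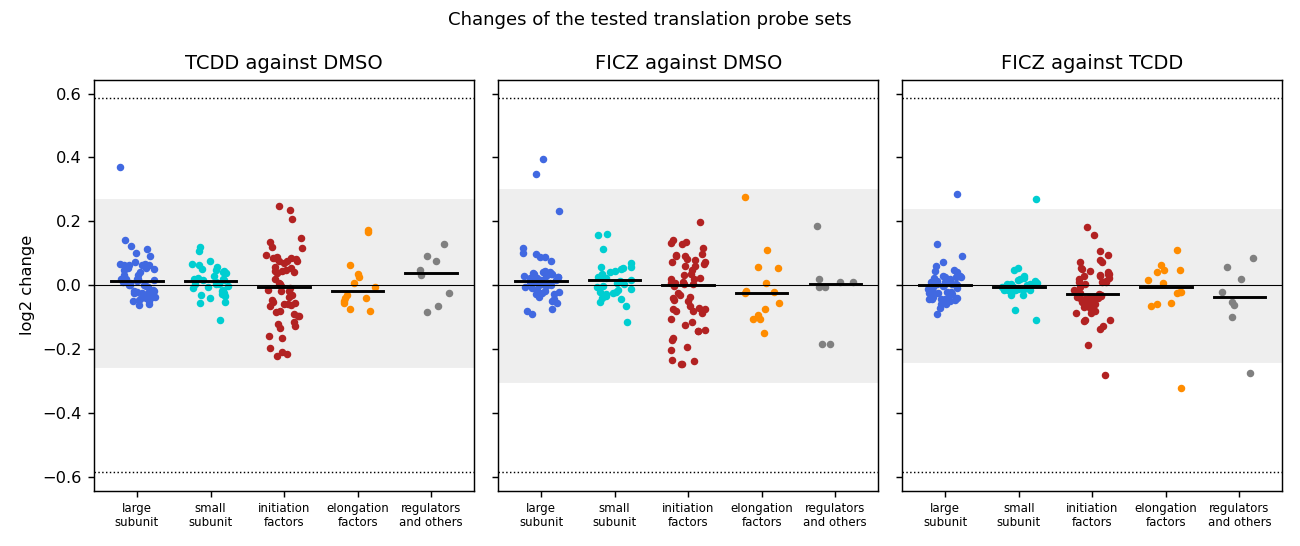
Log2 change of each tested member by class in the 3 comparisons between groups (points, spread sideways for visibility), with class medians as black bars, the central 90% of all tested probe sets shaded, and dotted lines at 1.5-fold. The subunit proteins sit close to 0 with a few of their dimmer probe sets apart, and the initiation factors spread more widely on both sides.

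The proteins of both ribosomal subunits had closely similar median changes. The 52 large subunit probe sets had a median log2 change of 0.01 with TCDD (33 positive) and 0.01 with FICZ (34 positive). The 34 small subunit probe sets had medians of 0.01 (21 positive) and 0.01 (20 positive). Over all tested probe sets the medians were 0.0015 and -0.0017, and 50.5% and 49.5% were positive. Of the 86 ribosomal probe sets of both subunits 54 were positive with each ligand. Without DMSO replicate 2, 44 were positive with TCDD and 46 with FICZ, so most of that excess depended on 1 array. The 4 probe sets of the P-stalk, the flexible arm of the large subunit that recruits elongation factors, ranged from -0.06 to 0.03 with TCDD and from 0.003 to 0.04 with FICZ, and without DMSO replicate 2 rplp2.L and rplp2.S were negative with FICZ too, at -0.05 and -0.02.

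Among large subunit proteins rpl22.S, an RNA-binding protein of the subunit's outer face, had a small difference from DMSO with either ligand. Its log2 signal was 12.48, 12.36 and 12.38 on the 3 DMSO arrays, 12.55, 12.51 and 12.52 with TCDD, and 12.52, 12.47 and 12.58 with FICZ. TCDD arrays all lay above the DMSO arrays, while the lowest FICZ array lay just under the highest DMSO array. The changes were 0.12 (SE 0.05, adjusted p = 0.97) and 0.12 (SE 0.05, adjusted p = 0.56), neither past the limma threshold. For rpl36a.L, which lies close to the exit site for transfer RNA, the signals were 12.71, 12.61 and 12.70 with DMSO, 12.79, 12.78 and 12.78 with TCDD, and 12.78, 12.79 and 12.72 with FICZ. All 6 ligand arrays lay above all 3 DMSO arrays, by changes of 0.11 (adjusted p = 0.97) and 0.09 (adjusted p = 0.69), or 0.07 and 0.05 without DMSO replicate 2. It was the member with such a separation upward, 0.61% of members against 1.75% of all tested probe sets.

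Values of the subunit's other named proteins follow, those of dimmer probe sets mostly in the next paragraph. rpl28.S read 12.44, 12.42 and 12.55 with DMSO and 12.59, 12.56 and 12.56 with FICZ, a change of 0.10 (SE 0.04, adjusted p = 0.63). FICZ arrays all lay above the DMSO arrays. rpl5.L and rpl11.S encode proteins that, with 5S RNA, bind the p53 inhibitor Mdm2 in mammals when ribosome assembly fails. Their changes with FICZ were -0.03 (95% CI -0.11 to 0.06) and -0.03 (-0.14 to 0.09), and with TCDD -0.02 (-0.11 to 0.06) and 0.06 (-0.05 to 0.18). Without DMSO replicate 2 the changes with TCDD were -0.05 and 0.10. The other copy, rpl5.S, changed by 0.09 with TCDD and 0.04 with FICZ, the former 0.02 without that array. The interval of the TCDD change of rplp0.S, the base of the P-stalk, ran from -0.04 to 0.10 and that of the FICZ change from -0.03 to 0.11. The bright probe set of rpl3.L, which lies near the catalytic centre, had intervals of -0.12 to 0.05 and -0.09 to 0.08. The gene's dimmer probe set, mean 8.85, changed by 0.10 with TCDD and 0.23 (-0.11 to 0.57) with FICZ. Its TCDD change was -0.11 without DMSO replicate 2. Between the ligands, rpl11.S differed by -0.09 (SE 0.05), with all FICZ arrays below the TCDD arrays, and the stalk protein rplp1.L by 0.09 (SE 0.05) with overlapping arrays.

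The largest ribosomal changes in size belonged to the dimmer probe sets of genes that a brighter probe set also measured. A probe set of rpl38.L with a mean log2 signal of 6.17 read 6.24, 5.35 and 6.14 with DMSO, 6.29, 6.08 and 6.48 with TCDD, and 6.33, 6.18 and 6.41 with FICZ. DMSO replicate 2 was the lowest of the 9. The changes were 0.37 (SE 0.21) and 0.40 (SE 0.21), and 0.09 and 0.12 without that array. The bright rpl38.L probe set (12.89) had changes of -0.04 and 0.01 (SE 0.04 each). Likewise 1 of 3 probe sets of rpl35a.S, mean 8.93, read 9.05, 8.53 and 8.81 with DMSO and 9.04, 9.20 and 9.19 with FICZ, a change of 0.35 (SE 0.15, adjusted p = 0.59), or 0.22 without DMSO replicate 2. The others, at 13.46 and 13.29, changed by 0.03 and -0.0006. Probe sets of the same gene thus differed, and which of them reports the messenger was not tested.

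Of the small subunit, rps26.L, which lines the exit path of the messenger, had the smallest p with TCDD. It read 12.74, 12.63 and 12.62 with DMSO, 12.66, 12.84 and 12.86 with TCDD, and 12.76, 12.81 and 12.76 with FICZ. TCDD replicate 1 fell inside the DMSO range, and the FICZ arrays lay above it. The changes were 0.12 (SE 0.05, adjusted p = 0.97) and 0.11 (SE 0.05, adjusted p = 0.70). For rps29.S, 1 of 3 probe sets read 12.51, 12.39 and 12.54 with DMSO, 12.50, 12.46 and 12.46 with TCDD, and 12.46, 12.37 and 12.27 with FICZ. The groups overlapped, and the change with FICZ was -0.12 (unadjusted p = 0.058), against -0.06 and -0.04 for the gene's other probe sets. Without DMSO replicate 2 the change was -0.16 (unadjusted p = 0.0095, adjusted p = 0.31). rps19.S, which is mutated in Diamond-Blackfan anaemia in humans, had 0.08 (SE 0.04) with TCDD, and rps2.L had 0.05 (SE 0.04). rps15.S had 0.07 (SE 0.04) with FICZ, with all FICZ arrays above the DMSO arrays.

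rps6 encodes the protein whose phosphorylation by S6 kinases is a common readout of mTOR activity. rps6.L changed by 0.05 (95% CI -0.06 to 0.16) with TCDD and -0.03 (-0.14 to 0.08) with FICZ. FICZ differed from TCDD by -0.08 (-0.19 to 0.03) there. The bright rps6.S probe set had -0.03 (-0.16 to 0.10) and -0.03 (-0.17 to 0.10). A dim rps6.S probe set, mean 6.01, read 6.11, 5.88 and 6.01 with DMSO, 5.90, 5.94 and 5.83 with TCDD, and 5.97, 6.45 and 6.05 with FICZ. Its FICZ arrays lay above the TCDD arrays, by 0.27 (-0.08 to 0.62), and the changes against DMSO were -0.11 with TCDD and 0.16 with FICZ (SE 0.16 each), with overlapping arrays. rpsa.S, which is also known as the laminin receptor, had 0.02 (-0.06 to 0.10) and 0.01 (-0.06 to 0.09). rps3, at the entry of the messenger channel, had changes between -0.01 and 0.06 over its .L and .S probe sets and both ligands. Each of these intervals spanned 0.

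Between quartiles translation factors spread more widely than ribosomal proteins, from -0.07 to 0.07 with TCDD against -0.02 to 0.05. The highest single changes were ribosomal, at 0.37 with TCDD and 0.40 with FICZ, against 0.25 and 0.28 for factors. Both ribosomal values came from the dim rpl38.L probe set, whose changes shrank without DMSO replicate 2 as given above. The 0.28 was that of eef1a2.S, with a mean log2 signal of 6.11. The lowest single changes were of factors, at -0.22 with TCDD and -0.25 with FICZ, against -0.11 and -0.12 for ribosomal proteins. The factors' median log2 change was -0.01 with TCDD (33 of 70 positive) and -0.02 with FICZ (33 of 70 positive), and it was -0.02 for FICZ against TCDD (30 positive). By array, the median deviation of the factors from their own means was largest in size for TCDD replicate 1, at -0.05. It was 0.04 for TCDD replicate 2 and 0.03 for DMSO replicate 2. The median standard error of a factor's change was 0.09, against 0.04 for a ribosomal protein and 0.14 for all tested probe sets. With an unadjusted p under 0.05 there were 3 factors with TCDD (4.29%) and 4 with FICZ (5.71%), all with negative changes, and 3 ribosomal proteins with each ligand (3.49%), all with positive changes, beside 3.43% and 7.39% of all tested probe sets. That split was not seen without DMSO replicate 2. The FICZ comparison then had 2 higher and 2 lower ribosomal proteins, the lower ones rps29.S and rpl37.S (-0.12), and 1 higher factor, eif2s3.S (0.18), beside 3 lower. With TCDD it had no ribosomal protein, and the 2 factors were probe sets of eif3a.S at 0.38 and eif4a1.S at -0.40. Their mean log2 signals were 6.79 and 8.08, beside a median of 7.66 over all tested probe sets.

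The cap-binding complex eIF4F joins the cap to the small subunit, and eif4g1 is its scaffold. eif4g1.S read 11.08, 11.44 and 11.09 on the DMSO arrays, 10.95, 10.94 and 11.05 with TCDD, and 10.94, 10.92 and 11.04 with FICZ. All 6 ligand arrays lay below all 3 DMSO arrays, the only member separated in that direction (0.61% of members against 1.25% of all tested probe sets). The changes were -0.22 (SE 0.09, adjusted p = 0.97) with TCDD and -0.24 (SE 0.09, adjusted p = 0.50) with FICZ. DMSO replicate 2 was the highest array by a wide margin, and without it the changes were -0.11 and -0.12. The related scaffold eif4g2.S, which supports initiation without cap binding, read 11.73, 12.24 and 11.85 with DMSO and between 11.67 and 11.84 on the ligand arrays. Its change with TCDD was -0.21 (SE 0.10) and, without DMSO replicate 2, -0.06.

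Of the helicases of that complex, which unwind the leader of the messenger, eif4a2.L differed most between the ligands. It read 9.44, 9.50 and 9.29 with DMSO, 9.51, 9.53 and 9.41 with TCDD, and 9.20, 9.17 and 9.24 with FICZ. The FICZ arrays lay below both other groups, which overlapped. FICZ differed from TCDD by -0.28 (SE 0.09, unadjusted p = 0.0087, adjusted p = 0.86) and from DMSO by -0.20 (SE 0.09, adjusted p = 0.65). With array weights in the limma fit, which give noisier arrays less say, eif4a2.L passed at -0.22 with an adjusted p of 0.049, beside a call rate of 3.06% over all probe sets. The closely related helicase eif4a1 had smaller values for FICZ against TCDD. They were -0.04 (95% CI -0.15 to 0.07) for .L and -0.07 (-0.20 to 0.05) for the brighter .S probe set. The other .S probe set went the other way, at 0.10. Against DMSO that probe set changed by -0.21 with TCDD and -0.12 with FICZ, or -0.40 and -0.30 without DMSO replicate 2. The difference between the genes was not tested. The cap-binding relative eif4e2.L had 0.18 for FICZ against TCDD at 1 probe set and -0.04 at another.

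eIF3 is the large scaffold that holds the small subunit during initiation, and 21 probe sets of 13 genes measured it. Their medians were 0.002 with TCDD and -0.004 with FICZ. Its largest subunit gave the smallest p of any member with FICZ. A probe set of eif3a.L read 11.02, 11.14 and 11.12 with DMSO, 10.85, 11.03 and 10.99 with TCDD, and 10.93, 10.86 and 10.74 with FICZ. All FICZ arrays lay below the DMSO arrays. The change was -0.25 (SE 0.08, unadjusted p = 0.0055, adjusted p = 0.29) with FICZ and -0.13 (SE 0.08, adjusted p = 0.97) with TCDD, and without DMSO replicate 2 the FICZ change was -0.22. The gene's other probe sets changed with FICZ by -0.09 (SE 0.06) and -0.19 (SE 0.14), and the latter became 0.03 without DMSO replicate 2, where that array had read 11.65 against 11.02 and 10.94.

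**Figure D3:**
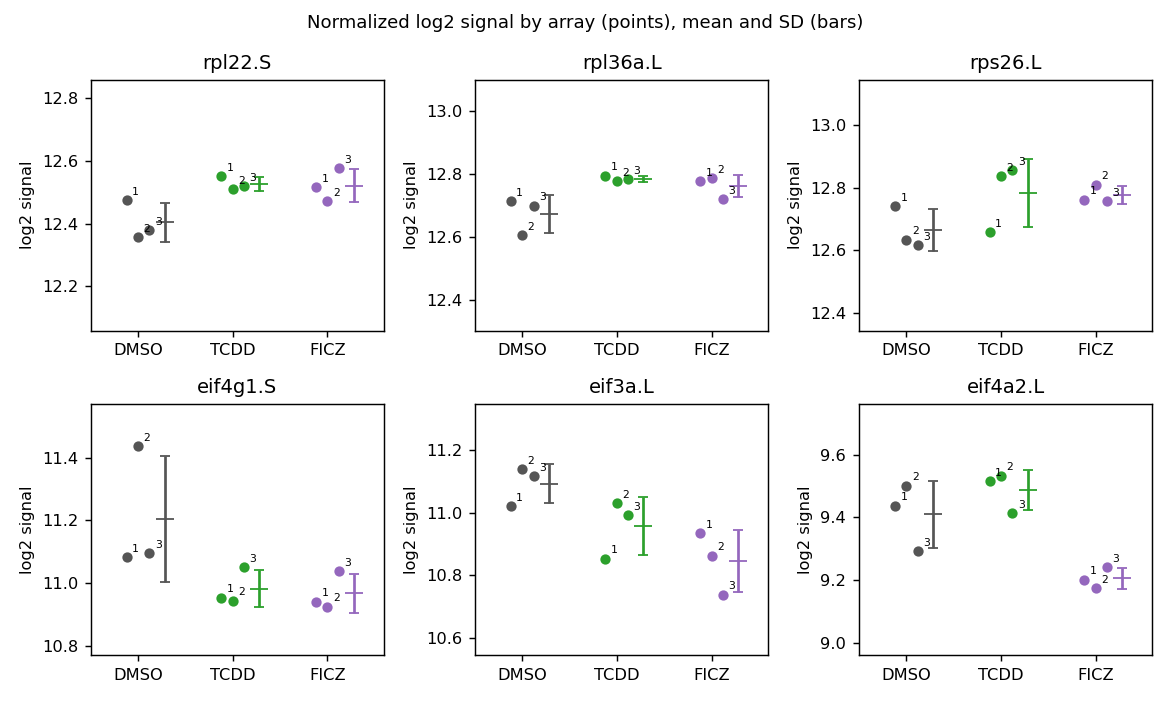
Normalized log2 signal on each of the 9 arrays (points numbered by replicate) with the mean and SD of each group, for 3 ribosomal protein probe sets (top) and 3 initiation factor probe sets (bottom), each panel spanning 0.8 on the log2 scale. The ribosomal differences are near 0.1, eif4a2.L separates FICZ from both other groups, and the DMSO group of eif4g1.S is widened by replicate 2.

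eIF2 carries the first transfer RNA, and its phosphorylation by stress kinases slows initiation. eif2s1.S, the subunit so phosphorylated, changed by -0.08 (95% CI -0.23 to 0.07) with TCDD and -0.11 (-0.26 to 0.04) with FICZ, or -0.04 and -0.07 without DMSO replicate 2. The 3 subunits of eIF2B, the exchange factor that recharges eIF2, had changes between 0.08 and 0.12 with TCDD and between 0.03 and 0.09 with FICZ, with a median standard error of 0.11. Without DMSO replicate 2 they were not all positive, since eif2b2.L had -0.04 with TCDD and -0.07 with FICZ. Of the kinases, eif2ak1.L had -0.08 and -0.18 (SE 0.16 each), and eif2ak2.L had -0.03 and -0.01 (SE 0.14 each). Without that array eif2ak1.L had -0.23 and -0.33 (unadjusted p = 0.047 with FICZ, adjusted p = 0.54), and eif2ak2.L had 0.04 and 0.06. With all arrays the kinases' intervals reached beyond 0.25 on the log2 scale on at least 1 side, wider than those of the ribosomal proteins. eif4ebp2.S, which holds the cap-binding factor inactive until mTOR phosphorylates it, had 0.07 and 0.01 (SE 0.11 each), which became -0.07 and -0.13 without DMSO replicate 2.

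eif5.S, which triggers the hydrolysis of GTP on eIF2, read 10.94, 11.30 and 11.02 with DMSO and 10.90, 10.86 and 10.80 with FICZ at 1 probe set. The FICZ arrays lay below the DMSO arrays, with a change of -0.24 (SE 0.09, adjusted p = 0.52), or -0.13 without DMSO replicate 2. At the other eif5.S probe set the change was -0.08 (SE 0.09). All 5 probe sets of eif5a.L had negative changes with either ligand, from -0.16 to -0.06 with TCDD and from -0.13 to -0.03 with FICZ. Without DMSO replicate 2 the changes ran from -0.09 to -0.0062 with TCDD, and 2 of the 5 were positive with FICZ, at 0.02 and 0.0042. They measure the same messenger and are not independent. The probe set with the smallest p read 11.47, 11.66 and 11.43 with DMSO and 11.39, 11.35 and 11.35 with TCDD, with an adjusted p of 0.97. eif6.S, which keeps the large subunit from joining too early, had 0.07 (95% CI -0.11 to 0.25, or 0.02 without that array) and 0.03 (-0.14 to 0.21).

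With all arrays no member classed by its symbol as an elongation factor (eef1 and eef2) had an unadjusted p under 0.05 in any comparison. Without DMSO replicate 2, eef1d.S did with FICZ in the limma test, at -0.26 (unadjusted p = 0.043, adjusted p = 0.52). The bright probe set of eef1a1.S, which delivers transfer RNAs, read 13.36, 13.39 and 13.37 with DMSO, 13.36, 13.31 and 13.35 with TCDD, and 13.35, 13.36 and 13.24 with FICZ. The groups overlapped, and the changes were -0.03 (95% CI -0.11 to 0.05) and -0.06 (-0.14 to 0.02). The 3 probe sets of eef2.1.L, the translocase, ranged from -0.08 to -0.04 with TCDD and from -0.07 to -0.02 with FICZ. DMSO replicate 2 was the highest DMSO array at each of them, and without it all 3 turned positive with both ligands, from 0.02 to 0.04 with TCDD and from 0.03 to 0.08 with FICZ. eef1b2.L at its bright probe set had -0.07 and -0.09 (SE 0.05 each), and 2 eef1g.L probe sets, of the same exchange complex, had changes of 0.06 and 0.05 with FICZ.

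Among proteins named after factors, eef1aknmt.S, a methyltransferase of elongation factor 1A, read 8.72, 8.77 and 8.88 with DMSO, 8.70, 9.002 and 8.94 with TCDD, and 8.66, 8.60 and 8.55 with FICZ. FICZ arrays lay below both other groups. FICZ differed from TCDD by -0.28 (SE 0.11, unadjusted p = 0.023, adjusted p = 0.9999), and with array weights by -0.32 (adjusted p = 0.011). eif1ad.L, which acts in assembly of the small subunit in human cells, changed by 0.13 with TCDD and 0.19 with FICZ (SE 0.11 each, adjusted p = 0.97 and 0.74), the former 0.08 without DMSO replicate 2. eif4enif1.L, which carries the cap-binding factor into the nucleus in human cells, had a difference of 0.08 (SE 0.12) between the ligands.

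Ribosomal proteins and factors were also compared under other scalings of the arrays, because quantile normalization fixes the distribution at the bright end, where ribosomal proteins are a large part. The ribosomal median with FICZ against DMSO was 0.01 after quantile normalization and 0.02 after cyclic loess. It was 0.06 on the values as deposited, and 0.09 when arrays were aligned on the medians of the other probe sets. In that last setting 84 of 86 ribosomal probe sets were positive, a median of 1.06-fold, against 53.7% of all tested probe sets. The 130 other probe sets with a log2 signal of 12 or more moved with them, at a median of 0.08 with 116 positive. No member passed the threshold in any of these settings. The ribosomal median exceeded the factor median by 0.02 to 0.04 in each comparison with DMSO by a single ligand under all 4 scalings, whereas the sign of the factor median turned with the scaling. That order did not hold under other settings. With TCDD the ribosomal median lay below the factor median without DMSO replicate 2 (0.0022 against 0.0032), with 1 probe set per gene (0.0156 against 0.0224) and with array weights (0.0118 against 0.0201). With FICZ the gap was 0.001 with array weights and 0.0075 with 1 probe set per gene.

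**Figure D4:**
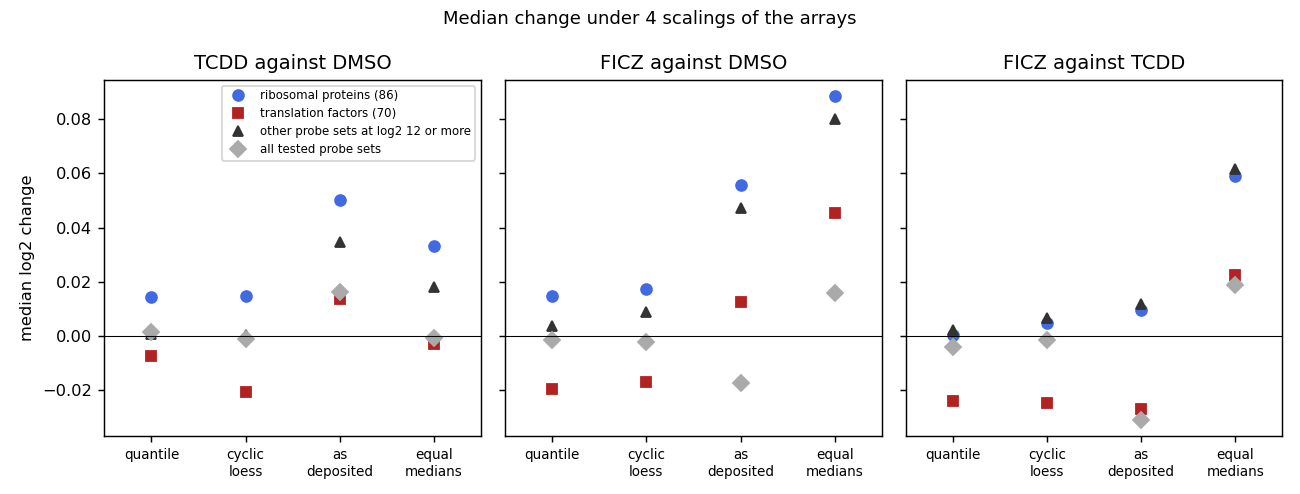
Median log2 change under 4 scalings of the arrays for the 86 tested ribosomal protein probe sets, the 70 tested factors, the 130 other probe sets with a log2 signal of 12 or more, and all 11618 tested. The ribosomal proteins and the other bright probe sets rise together from near 0 to between 0.08 and 0.09 for FICZ against DMSO.

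The copies .L and .S were compared within genes. Both copies were measured for 17 symbols and tested for 15, of which 7 were ribosomal, and 762 such pairs were tested over the whole array. The test asks whether the difference between the copies on each array shifted with treatment. No member pair was called with TCDD against DMSO (0 of 15, background 0.131%), FICZ against DMSO (0 of 15, background 1.31%) or FICZ against TCDD (0 of 15, background 0.262%). No unadjusted p was under 0.05, against 6.17%, 8.92% and 5.12% of all pairs, and the lowest were 0.18, 0.16 and 0.24. Intervals lay inside 1.5-fold for 14, 14 and 15 of the 15 pairs, 93.3%, 93.3% and 100.0%, against 79.9%, 77.2% and 82.3% of all pairs. The median size of the difference between copies was 0.07 with TCDD and 0.05 with FICZ, beside 0.10 and 0.11 over all pairs.

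With all arrays the smallest p with TCDD belonged to rpl5. The log2 signal of rpl5.L minus that of rpl5.S was 0.09, 0.21 and 0.06 on the DMSO arrays, -0.01, 0.01 and 0.02 with TCDD, and -0.01, 0.04 and 0.13 with FICZ. The TCDD arrays lay below the DMSO arrays, and the FICZ arrays overlapped them. The copies differed in their response by -0.11 (95% CI -0.29 to 0.06) with TCDD, or -0.07 without DMSO replicate 2. The smallest p with FICZ was that of eif2s2, the beta subunit of eIF2, where the difference between copies was 0.09, 0.11 and 0.12 with DMSO and 0.35, 0.06 and 0.40 with FICZ. FICZ replicate 2 lay below the DMSO arrays and the others above, and the shift was 0.16 (-0.07 to 0.40). For FICZ against TCDD it was rpl4, with a shift of -0.11 (-0.30 to 0.08). Without DMSO replicate 2 the smallest p with TCDD in the limma test was that of eif3g (shift 0.20, unadjusted p = 0.098). With FICZ it was then that of eif4e3 (shift 0.20, unadjusted p = 0.12).

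eif3a had the largest difference between copies and the widest interval. Its 3 .L probe sets had negative changes with either ligand and its 2 .S probe sets positive ones, but without DMSO replicate 2 a .L probe set turned positive with both ligands, at 0.03 each. The pair differed by -0.27 (95% CI -0.72 to 0.17) with TCDD and -0.29 (-0.73 to 0.16) with FICZ. Without that array the difference was -0.27 (-0.71 to 0.18) with TCDD and -0.13 (-0.57 to 0.32) with FICZ. The .S probe sets share a target, have log2 signals of 6.78 and 6.79, and carried a standard deviation within groups of 0.18 and 0.23. eif1b, a start codon factor, followed at 0.13 (-0.08 to 0.34) with TCDD. Both of its probe sets are of the kind that the maker marks as able to bind related transcripts, so the copies could share signal there. Both probe sets of the rps3a pair and the .S probe set of the eif3a pair are of that kind too. Over all members, ribosomal .L probe sets (39) had median changes of 0.01 with TCDD and 0.02 with FICZ, and ribosomal .S probe sets (46) had 0.02 and 0.01.

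**Figure D5:**
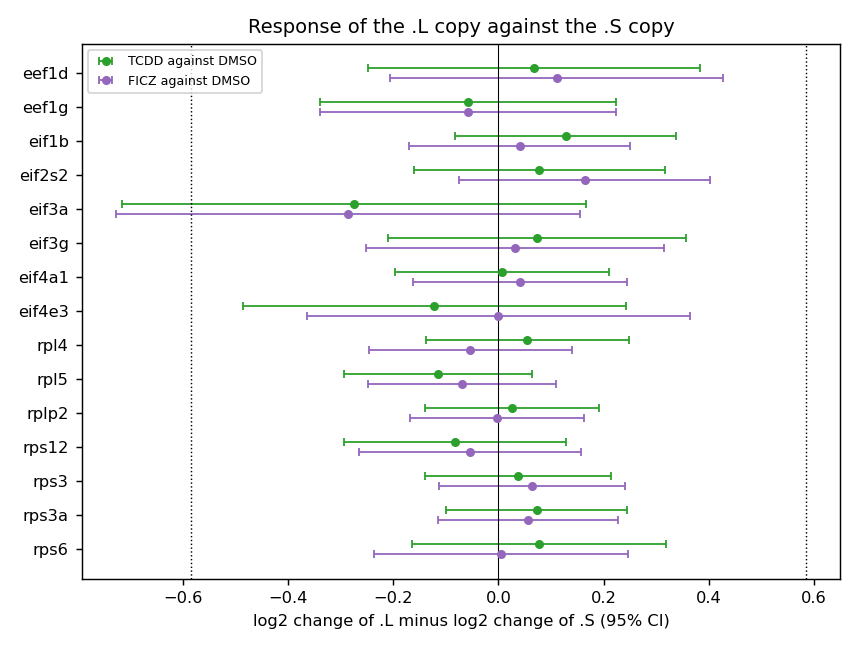
Difference between the log2 change of the .L copy and that of the .S copy, with its 95% confidence interval, for the 15 genes with both copies tested, with TCDD and with FICZ against DMSO and dotted lines at 1.5-fold. Every interval spans 0, and that of eif3a reaches past 1.5-fold on the negative side.

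Other genes of translation, namely further pyrimidine tract messengers, termination and quality control factors and the mTOR and stress pathways that act on them, had 49 tested probe sets of 33 genes. None passed in any comparison in the limma test, and the counts at an unadjusted p under 0.05 were 0 with TCDD, 2 with FICZ and 1 for FICZ against TCDD, beside 3.43%, 7.39% and 3.08% of all tested probe sets. The smallest p with FICZ was that of pabpc1.S, the poly(A)-binding protein, at -0.17 (SE 0.06, adjusted p = 0.45). It was followed by larp4.L, a binding partner of that protein, at -0.31 (SE 0.12, adjusted p = 0.55). With TCDD the smallest p was that of gspt1.L, a termination factor, at 0.20 (SE 0.10, adjusted p = 0.97). A probe set of hnrnpa1.L had the smallest p between the ligands, at -0.12 (SE 0.05). The gene's other .L probe sets went the other way, at 0.11 (SE 0.07) and 0.03 (SE 0.09).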

How the data were processed

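Deposited values were 1 log2 signal per probe set and array. The submitters' processing notes name GCOS without a version; neither algorithm nor scaling nor log step was stated, and log2 was inferred from the highest value, 13.627. Array medians ran from 6.67 to 6.87. Genes came from the platform annotation, updated through a reference gene table: 9304 of 15491 probe sets had 1 symbol, 195 several and 5992 none. Non-control probe sets were quantile normalized, those averaging below the 25th percentile of means (log2 4.88) were not tested, and limma 3.58.1 in R 4.3.3 fitted all 9 arrays (lmFit, eBayes with trend), with two-sided p values adjusted by Benjamini-Hochberg over 11618 probe sets, or over 762 copy pairs. Each copy was represented by its brightest probe set. The procedure was run on simulated data with independent noise on each array, with no deviating array such as DMSO replicate 2. Members and lists were chosen with earlier results of these data known. The text names the members with the 3 smallest p values per class and comparison, genes fixed for their role, extremes of level and spread, and, after their values were seen, other probe sets of those genes, a few relatives and the excluded or unbounded members. Of 23 genes fixed for their role, 18 were measured; the others, and all sequences and genome positions, were not analysed here. FICZ arrays were numbered by their titles, since their descriptions carry other numbers. An exact permutation test was not used, and precision is limited by the 3 arrays per group.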

Additional observations from a re-analysis of the deposited data

How the results depend on the processing

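No member and no copy pair was called under any alternative run, with 1 exception. The alternatives were other normalizations, other filters, no variance trend, array weights, 1 probe set per gene, plain probe sets for pairs, each array left out, a replicate block, and, added after seeing the data, probe sets listing both copies. The exception was array weights, under which 3 members passed for FICZ against TCDD, eif4a2.L, eef1aknmt.S and the dimmest probe set of rpl35a.S (0.45, adjusted p = 0.030), as 355 probe sets did over the array against 24 without weights. The cause was not tested. With deposited values the ribosomal median was 0.05 with TCDD, 0.0557 with FICZ and 0.0513 for the mean of both ligands. With equal medians of the other probe sets it was 0.0333, 0.0887 and 0.0594, and 0.0592 for FICZ against TCDD, while the factor median became 0.0455 with FICZ and 0.0225 for FICZ against TCDD. Leaving out 1 array at a time, the ribosomal median ran from 0.0022 to 0.021 with TCDD and from 0.0074 to 0.017 with FICZ. The factor median then ran from -0.021 to 0.0032 with TCDD and from -0.038 to -0.0078 with FICZ. For FICZ against TCDD it ran from -0.031 to 0.0081, the latter without TCDD replicate 2. A check of the replicate numbers gave correlations of same-numbered deviations from -0.27 to 0.48. Between DMSO and TCDD they were 0.48, 0.27 and -0.004 for numbers 1, 2 and 3, while DMSO 2 and TCDD 3 had 0.25. The check thus does not settle whether the arrays were paired. The replicate block gave 0 called members and 0 called pairs in each comparison. The numbers are those of the titles. The descriptions number the FICZ arrays 3, 4 and 5, so the check and the block rest on titles alone for that group. The 4, 4 and 3 members whose intervals reached 1.5-fold had mean log2 signals from 5.52 to 8.93.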
